A study of Homo sapiens with 5 samples.

Results

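The 9 genes described here encode transcription factors of the luminal breast epithelium: the oestrogen receptor ESR1 and the progesterone receptor PGR, the pioneer factors FOXA1 and GATA3, the AP-2 factors TFAP2A and TFAP2C, and XBP1, SPDEF and GRHL2. They were listed by name for their place in the luminal lineage, and all 9 were found among the 19970 coding genes of the autosomes and chromosome X. Rb occupancy around them was read from CUT&RUN, a method that tethers a nuclease to an antibody on chromatin and sequences the DNA it cuts free. The material was ZR-75-1, an established oestrogen receptor-positive breast cancer line, as parental cells given DMSO or 500 nM abemaciclib, a CDK4/6 inhibitor, over 4 days. Each treatment had 2 Rb libraries, and DMSO-treated cells also gave 1 IgG2a library as background. Each library was represented by its list of peaks, with no expression values, so the identity of the cells could not be checked against luminal marker genes.

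Rb, the product of RB1, has no DNA-binding domain of known sequence specificity and reaches chromatin through partners, of which the E2F factors are the best known. CDK4 and CDK6 phosphorylate Rb and loosen that contact, and inhibitors of these kinases leave Rb hypophosphorylated. FOXA1 and GATA3 open chromatin for the oestrogen receptor in luminal cells, PGR is among the receptor's known target genes, and AP-2 factors, XBP1, SPDEF and GRHL2 act within the same transcriptional network.

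The peak lists differed widely in length, which bears on every count below. The DMSO lists held 1438 peaks (replicate 1) and 2582 (replicate 2), against 13960 and 12234 for abemaciclib. Fragment totals were not in the lists, but the lowest background that recurred in them, a mean coverage per base, was 0.649 and 0.677 fragments in DMSO and 0.656 and 0.521 in abemaciclib. The weakest called summits had a coverage of 6 fragments in each DMSO library and 5 in each abemaciclib library. Coverage at the summit was solved from the fold and p-value of each peak, and its 95% Poisson intervals cover counting error only. A fold, a p-value or a rank was read only within its own library. The libraries came from whole cultures, so Rb in more cells and more Rb per cell cannot be told apart.

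Rb peaks at the 9 genes were found almost entirely with abemaciclib. DMSO gave 0 peaks at these genes in replicate 1 and 1 in replicate 2, whereas abemaciclib gave 17 and 13. The mean was 15 ± 2.83 peaks with abemaciclib and 0.5 ± 0.707 with DMSO (SD, n = 2 each), a difference of 14.5 with no overlap between the groups. The whole lists did not overlap in length either, at 1438 and 2582 peaks in DMSO and 13960 and 12234 with abemaciclib. The separation was therefore not particular to these genes. The two-sided p of an exact permutation test was 0.333, which is as low as 2 libraries against 2 can reach. The IgG2a library had 0 peaks at these genes, and no region described here overlapped any of its 589 peaks. That is a weak check, because Rb peaks were called against IgG. Only 14.3% of the IgG2a peaks lay on the autosomes and chromosome X. Merged over the 4 Rb libraries, the 31 peaks made 20 regions, of which 9 had a peak in both abemaciclib libraries, 8 in abemaciclib replicate 1 alone and 3 in replicate 2 alone. The same split over all Rb regions was not computed, so it was not read as particular to these genes. In equal lists of the 1438 strongest peaks per library, the genes had no peak in any library, so the difference lay among peaks below the strongest of each abemaciclib list.

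By gene, Rb promoter peaks were found at shares near those of all coding genes. A promoter was taken as 2000 bp upstream to 500 bp downstream of any annotated transcription start site (TSS). DMSO replicate 1 had a promoter peak at 0 of the 9 genes, beside 7.86% of all coding genes, and DMSO replicate 2 had one at 1, beside 12.4%. Abemaciclib replicate 1 had a promoter peak at 7 genes, beside 58% of coding genes, and replicate 2 at 6, beside 53.9%. A promoter region with a peak in both abemaciclib libraries was found at 6 of the 9 genes (FOXA1, GATA3, PGR, TFAP2A, TFAP2C and GRHL2), beside 52.5% of coding genes. Of these, 5 had a region that was gained, meaning that both abemaciclib lists and no DMSO list held it, beside 40.1%. None of the 9 had one that appeared in all 4 Rb lists, beside 6.49%. With 9 genes these counts sit close to the background shares and were not read as particular to the luminal factors.

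**Figure D1:**
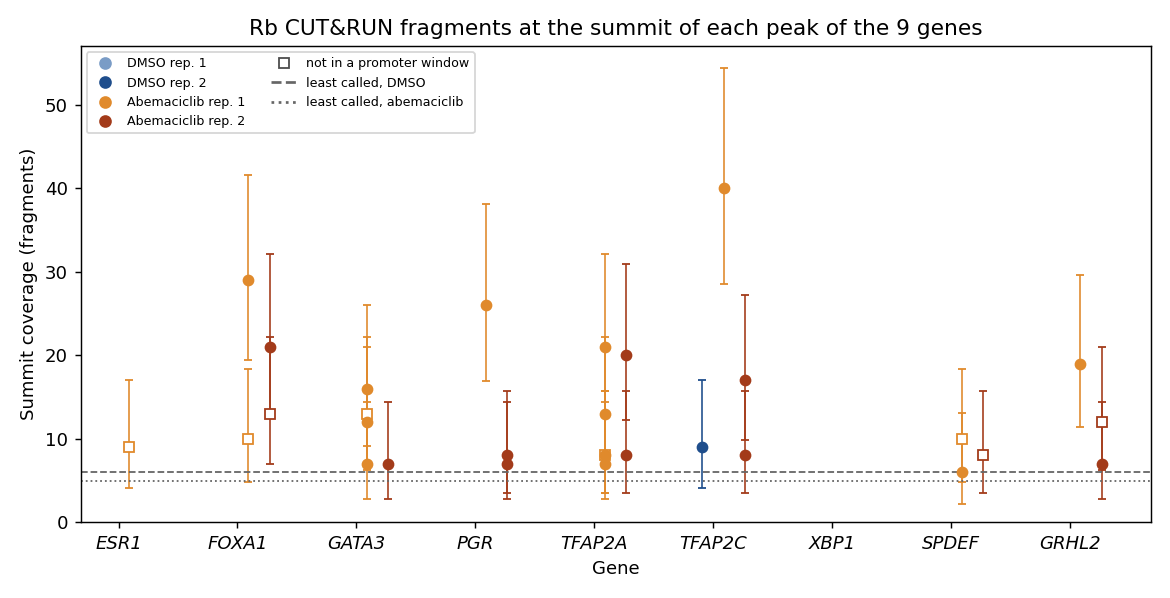
Summit coverage in fragments (y axis) of each peak of the 9 genes (x axis), coloured by library, with 95% Poisson intervals; filled circles are promoter peaks, open squares other peaks, and dashed and dotted lines mark the weakest called summits in DMSO (6 fragments) and abemaciclib (5). Abemaciclib points reach 40 fragments at TFAP2C and 29 at FOXA1, the only DMSO point is TFAP2C in replicate 2, XBP1 has no point, and the SPDEF intron peak of abemaciclib replicate 2 is not drawn because its coverage was not solved.

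Among the pioneer factors, FOXA1 (ENSG00000129514) had a gained promoter region of similar rank in both abemaciclib libraries. On chromosome 14, minus strand, the gained region chr14:37594442-37596490 (GRCh38) had no peak in either DMSO library. Abemaciclib replicate 1 had 29 fragments at its summit (95% interval 19.4 to 41.6), with a fold of 18.1 over background and rank 4361 by p-value. Abemaciclib replicate 2 had 21 fragments (13 to 32.1), with a fold of 14.5 and rank 4473. The summits lay 472 and 438 bp upstream of the canonical TSS, inside an intron of a longer FOXA1 transcript, and the peaks also fell in the promoter window of TTC6, a coding gene on the opposite strand. Rb at this position therefore cannot be assigned to FOXA1 rather than TTC6 from the peaks alone.

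FOXA1 also had a gained region outside its promoters, chr14:37599588-37600217. The summit was 4.68 kb upstream of the canonical TSS in abemaciclib replicate 1, with 10 fragments (4.80 to 18.4), a fold of 4.41 and rank 12275. It was 4.66 kb upstream in replicate 2, with 13 fragments (6.92 to 22.2), a fold of 7.87 and rank 7711. Both lay outside the gene and held none of the motifs searched. A non-promoter region with a peak in both abemaciclib libraries was found at 2 of the 9 genes, FOXA1 and SPDEF, beside 9.28% of coding genes. Without abemaciclib replicate 2, which leaves 1 list to call a region, the count was 5, beside 14.0%, and with peaks held to q of 1e-05 or less it was 1, beside 7.30%.

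GATA3 (ENSG00000107485), the zinc finger factor that maintains luminal identity, had peaks over more of its locus in abemaciclib replicate 1 than in replicate 2. Its gained region chr10:8054274-8054620 had 16 fragments (9.15 to 26.0) in replicate 1, with a fold of 9.80 and rank 7702, and 7 fragments (2.81 to 14.4) in replicate 2, with a fold of 5.09 and rank 10762. The summits were 208 and 246 bp upstream of the canonical TSS, in an intron of longer GATA3 transcripts, and in the promoter window of the antisense RNA GATA3-AS1. Replicate 1 had 3 further peaks with none in replicate 2. One at chr10:8053227-8054114, 1.35 kb upstream of the canonical TSS, had 12 fragments. One at chr10:8050491-8051041 had 13, and one at chr10:8045056-8045581, by the most upstream GATA3 start, had 7. The first also fell in the GATA3-AS1 promoter window and the second in that of the non-coding RNA ENSG00000232638. Neither DMSO library had a peak at GATA3. With peaks held to q of 1e-05 or less, GATA3 had a promoter region in 1 library and was not gained. The 200 bp around the replicate 1 summit at the canonical start are shown because this was the GATA3 position found in both abemaciclib libraries (chr10:8054380-8054579, GRCh38, plus strand, the summit at the centre), with capitals marking a match to the AP-2 pattern GCCNNNGGC.
GATA3 promoter: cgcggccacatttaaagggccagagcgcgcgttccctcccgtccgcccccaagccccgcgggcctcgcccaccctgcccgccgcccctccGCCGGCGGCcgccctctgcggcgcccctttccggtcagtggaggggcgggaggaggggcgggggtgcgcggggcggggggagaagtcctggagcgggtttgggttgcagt
That AP-2 pattern was in 27.7% of the 12025 promoter summit windows of abemaciclib replicate 1.

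The nuclear receptors diverged. ESR1 (ENSG00000091831), the gene for the oestrogen receptor, had no promoter peak in any library, although its 12 annotated start sites gave it 19418 bp of promoter windows, more than any other of the 9 genes. Its only peak was in abemaciclib replicate 1 at chr6:151706223-151706438, in an intron 101 kb upstream of the canonical TSS and 15.8 kb from its nearest start site. That summit had 9 fragments (4.12 to 17.1), with a fold of 4.79 and rank 11945 of 13960, and its window held an AP-1 match (TGACTCA), which 3.15% of the 1811 non-promoter windows of that library held.

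PGR (ENSG00000082175) had a gained promoter region at chr11:101127420-101128705, placed downstream of its main start. Abemaciclib replicate 1 had 26 fragments (17 to 38.1) there, with a fold of 16.3 and rank 4858. Replicate 2 had 7 fragments (2.81 to 14.4), with rank 11366 at a fold of 4.50. The summits were 1.76 and 2.15 kb downstream of the canonical TSS, in a coding exon, and counted as promoter because PGR has further start sites; the peaks also fell in the promoter window of the antisense RNA PGR-AS1. Replicate 2 had a further peak at chr11:101129505-101129825, with its summit 80 bp downstream of the canonical TSS and 8 fragments, where replicate 1 had none. The PGR region was thus found in both abemaciclib libraries, but its summits did not coincide, and with peaks held to q of 1e-05 or less it was no longer gained.

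The AP-2 factors included the only gene of the 9 with a DMSO peak. TFAP2C (ENSG00000087510), the AP-2γ factor of luminal cells, had 1 region, chr20:56628726-56630893. DMSO replicate 1 had no peak in it, and DMSO replicate 2 had one at chr20:56630082-56630297 with 9 fragments (4.12 to 17.1), a fold of 5.40 and rank 1538 of 2582. Abemaciclib replicate 1 had 40 fragments (28.6 to 54.5), a fold of 16.4 and rank 3953, the best-ranked promoter peak of the 9 genes in that library. Abemaciclib replicate 2 had 17 fragments (9.90 to 27.2), a fold of 8.30 and rank 7114, and a weaker peak with 8 fragments 4 bp downstream of the canonical TSS. The stronger summits in abemaciclib were 1.13 and 1.11 kb downstream of that TSS, in an intron, and the DMSO summit was 811 bp downstream of it. With peaks held to q of 1e-05 or less, the DMSO peak was lost and TFAP2C, with peaks in 2 libraries, counted as gained. The window of the DMSO summit (chr20:56630017-56630216, GRCh38, plus strand) is shown as the only DMSO site of these genes. Capitals mark, from left to right, a CHR match (TTTGAA, the element of the DREAM and MuvB complexes, on the opposite strand), an AP-2 match and an E2F match (TTCCCGC on the opposite strand).
TFAP2C intron: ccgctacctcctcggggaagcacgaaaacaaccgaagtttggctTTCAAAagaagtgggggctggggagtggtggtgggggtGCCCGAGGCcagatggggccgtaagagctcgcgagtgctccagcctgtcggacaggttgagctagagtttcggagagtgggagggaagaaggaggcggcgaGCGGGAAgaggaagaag
Among the 2224 promoter windows of DMSO replicate 2, 27.2% held an E2F match, 3.69% a CHR match and 25.5% an AP-2 match.

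TFAP2A (ENSG00000137203), on the minus strand of chromosome 6, had 2 gained promoter regions and more peaks than any other of the 9 genes. The stronger, chr6:10403856-10404529, had 21 fragments (13 to 32.1) in abemaciclib replicate 1, with a fold of 12.7 and rank 6181, and 20 (12.2 to 30.9) in replicate 2, with a fold of 13.4 and rank 4889. Its summits were 10764 and 10757 bp downstream of the canonical TSS, in an intron, within 284 bp of another TFAP2A start and in the promoter window of TFAP2A-AS2. The weaker, chr6:10412464-10412965, had 13 and 8 fragments 2.34 and 2.37 kb downstream of the canonical TSS, in a coding exon, beside TFAP2A-AS1. In replicate 1 alone there were promoter peaks with 7 and 8 fragments upstream of the canonical TSS, and a peak with 8 fragments 31.4 kb downstream of it, outside the gene. No DMSO library had a peak at TFAP2A. The window of the stronger region (chr6:10404210-10404409, GRCh38, plus strand, replicate 1 summit) is shown because it held 2 E2F matches, TTCCCGC on each strand, in capitals.
TFAP2A intron: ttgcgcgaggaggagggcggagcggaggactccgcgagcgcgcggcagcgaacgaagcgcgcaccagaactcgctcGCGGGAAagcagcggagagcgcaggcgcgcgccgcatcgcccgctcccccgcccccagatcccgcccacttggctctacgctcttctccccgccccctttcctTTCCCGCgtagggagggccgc
An E2F match was in 17.3% of the promoter windows of abemaciclib replicate 1.

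SPDEF (ENSG00000124664), an ETS factor of secretory luminal cells, had a weak promoter peak in abemaciclib replicate 1 alone, at chr6:34556156-34556345. It had 6 fragments (2.2 to 13.1) with a fold of 3.51 and rank 13763 of 13960, and did not reach q of 0.01. Replicate 2 had an intron peak at chr6:34554082-34554282, rank 12213 of 12234. The region found in both was a gained one outside the promoter, chr6:34567429-34567708, 11.3 and 11.2 kb upstream of the canonical TSS. It had 10 fragments (4.80 to 18.4) in replicate 1, with a fold of 6.27 and rank 10363, and 8 (3.45 to 15.8) in replicate 2, with a fold of 5.67 and rank 10041. Its replicate 1 window (chr6:34567532-34567731, GRCh38, plus strand) is shown as the strongest SPDEF site, with an E2F match beside the summit in capitals.
SPDEF upstream: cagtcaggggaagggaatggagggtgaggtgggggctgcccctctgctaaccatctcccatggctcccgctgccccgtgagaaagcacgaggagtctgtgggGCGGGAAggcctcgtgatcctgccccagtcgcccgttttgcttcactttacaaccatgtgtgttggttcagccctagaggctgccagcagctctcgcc
Of the 1811 non-promoter windows of abemaciclib replicate 1, 14.5% held an E2F match.

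XBP1 (ENSG00000100219), the bZIP factor of the unfolded protein response and a known oestrogen receptor target, was the only gene of the 9 with no Rb peak in any library, beside 35.7% of coding genes. Of its 2 RefSeq promoters, one held an E2F match (TTGCCGC) and 2 CCAAT boxes, the NFY element, and the other (chr22:28800028-28800327) held neither. The 250 bases before the first of these starts (chr22:28800570-28800819, GRCh38.p14, minus strand, written in the direction of the gene) are shown with these matches in capitals, as the sequence of a promoter without a called peak.
XBP1 promoter: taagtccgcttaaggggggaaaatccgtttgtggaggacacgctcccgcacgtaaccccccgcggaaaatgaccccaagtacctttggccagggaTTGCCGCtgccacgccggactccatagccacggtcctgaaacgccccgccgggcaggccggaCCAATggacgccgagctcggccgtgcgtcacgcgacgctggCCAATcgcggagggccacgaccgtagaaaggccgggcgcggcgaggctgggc
Over 35116 RefSeq promoters of 300 bp, 12.97% held an E2F match and 34.6% a CCAAT box. RefSeq promoters were matched for 7 of the 9 genes, and none of the 6 listed for ESR1 held an E2F match. Coverage at positions without a peak was not in the lists.

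GRHL2 (ENSG00000083307), a grainyhead factor of epithelial cells, had a gained region at chr8:101493218-101494375, just inside the gene. Abemaciclib replicate 1 had 19 fragments (11.4 to 29.7) in an intron 1.29 kb downstream of the canonical TSS, with a fold of 11.5 and rank 6778. Replicate 2 had 12 fragments (6.20 to 21.0) 1.46 kb downstream, with a fold of 8.27 and rank 7636, in a peak that began past the promoter window and was joined to it by the overlap of the replicate 1 peak. A separate replicate 2 peak at chr8:101492109-101492452 had its summit 4 bp upstream of the canonical TSS with 7 fragments. These peaks also fell in the promoter windows of the long non-coding RNAs ENSG00000254024 and ENSG00000289048. Neither DMSO library had a peak at GRHL2. When the summit had to lie inside the promoter, GRHL2 had a promoter region in 1 library.

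**Figure D2:**
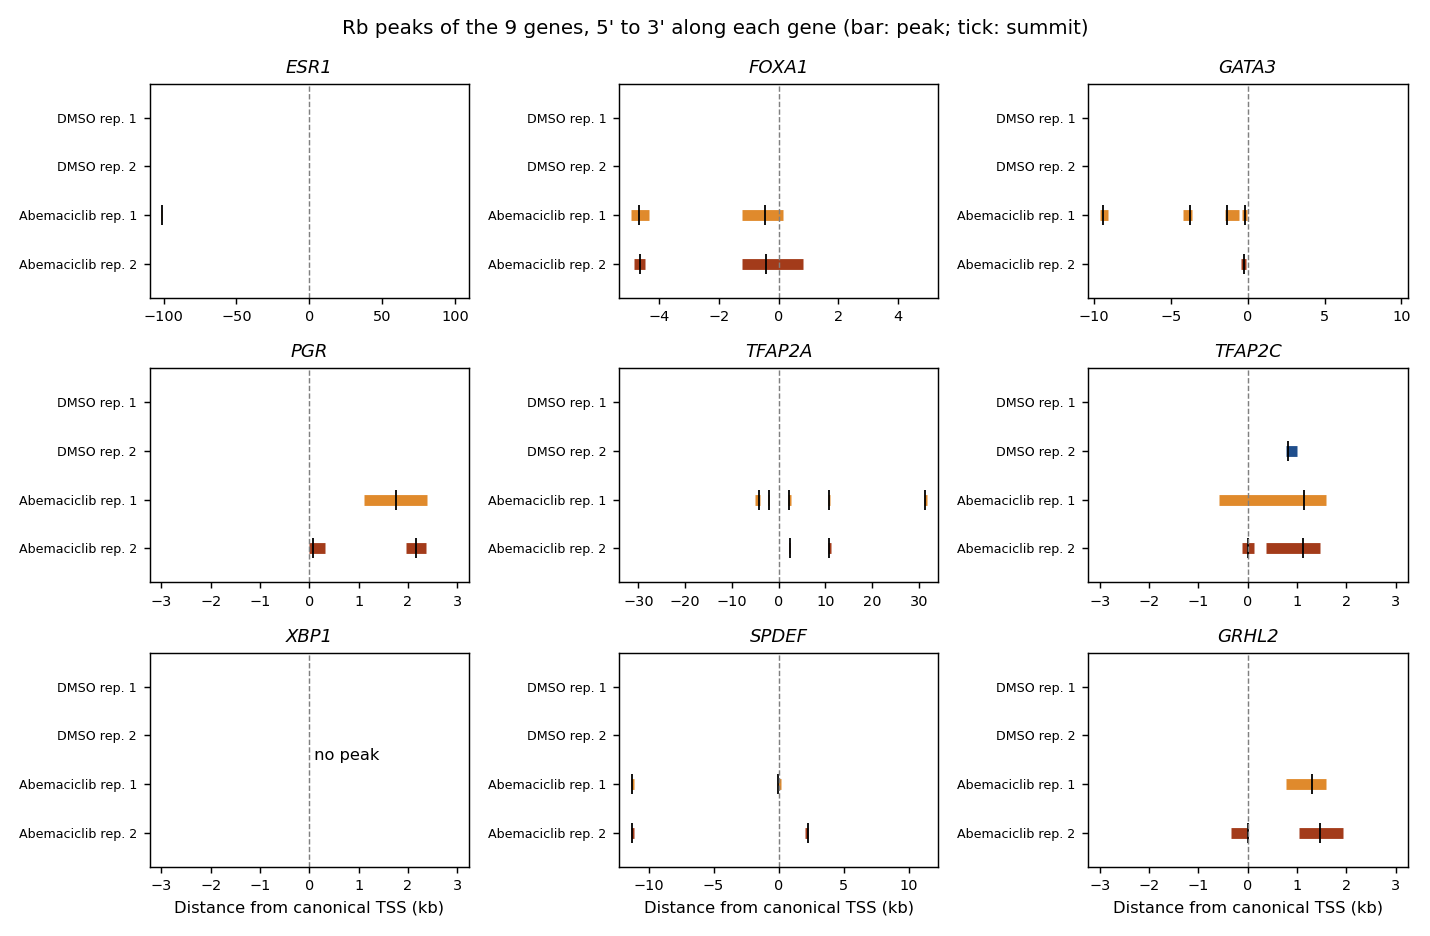
Peaks of each gene in the 4 Rb libraries (rows), against distance from the canonical TSS in kb along the direction of the gene (x axis, scaled per gene), with bars for peaks and ticks for summits. FOXA1 and GATA3 summits lie upstream of the canonical TSS, the stronger PGR, TFAP2C, TFAP2A and GRHL2 summits lie downstream of it, and XBP1 has no peak.

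The place of the best promoter peak relative to the canonical start varied among the genes that had one and, for PGR and GRHL2, between the abemaciclib replicates. In abemaciclib replicate 1, the best promoter peak of 4 of 7 genes (TFAP2C, PGR, TFAP2A and GRHL2) had its summit over 1000 bp from the canonical TSS, beside 12.6% of the 11584 coding genes with a promoter peak there. In replicate 2 this held for 2 of 6 genes (TFAP2A and TFAP2C), beside 12.2%. In that library the best PGR promoter peak was the one at the start site, with rank 9588 against 11366 for the inner one, and the inner GRHL2 peak, with rank 7636, began past the promoter window and was not counted. The canonical TSS itself was covered by the best promoter peak of 3 of 7 and 3 of 6 genes, and by that of 77.9% and 75.2% of coding genes. Of the 4 genes with distant summits in replicate 1, TFAP2A has 18 annotated start sites, PGR 6, GRHL2 5 and TFAP2C 2. FOXA1 and GATA3, with summits nearer the canonical TSS, have 5 each, and SPDEF has 2. The part of the number of start sites in the result was not tested. With promoters of the canonical transcript alone, 3 genes had a promoter region in both abemaciclib libraries (FOXA1, GATA3 and TFAP2C), beside 49.3% of coding genes, and 2 were gained, beside 36.7%.

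The order of the best promoter peaks differed between the abemaciclib replicates. By rank as a percentage of the list, replicate 1 placed TFAP2C at 28.3%, FOXA1 at 31.2%, PGR at 34.8%, TFAP2A at 44.3%, GRHL2 at 48.6%, GATA3 at 55.2% and SPDEF at 98.6%. Replicate 2 placed FOXA1 at 36.6%, TFAP2A at 39.96%, TFAP2C at 58.1%, PGR at 78.4%, GATA3 at 88.0% and GRHL2 at 98.3%. FOXA1 and TFAP2A stood at similar places in both, while TFAP2C, PGR, GATA3 and GRHL2 stood lower in replicate 2. The GRHL2 place in replicate 2 is that of its start-site peak, and the peak in its gained region stood at 62.4%. In replicate 1 the coverage intervals of each pair of neighbours from TFAP2C to GATA3 overlapped, so neighbours were not told apart by the counts, whereas those of TFAP2C (28.6 to 54.5) and GATA3 (9.15 to 26.0) did not overlap. None of these genes had a promoter peak above 28.3% of its list.

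**Figure D3:**
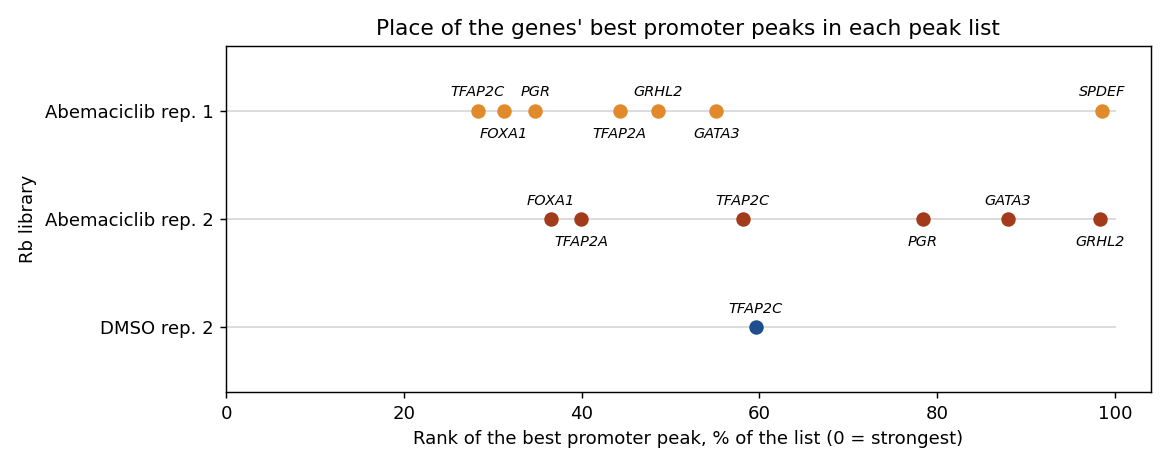
Rank of each gene's best promoter peak as a percentage of its library's list (x axis, 0 is the strongest), for the 3 Rb libraries with such a peak (rows). In abemaciclib replicate 1 they run from TFAP2C at 28.3% to SPDEF at 98.6%, and in replicate 2 from FOXA1 at 36.6% to GRHL2 at 98.3%.

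Coding genes with the most similar ranks are named for FOXA1 and TFAP2A only. Nearest to FOXA1 over the 2 abemaciclib libraries were TTC6, which shares its peak, and GGCX and VAMP8, all with ranks 4361 and 4473. Nearest to TFAP2A were RAI14, with ranks 6115 and 4889, PMEPA1, with 6198 and 4833, and SLC29A1, with 6115 and 4913. Likeness here is the sum of absolute rank differences over these 2 libraries, and equal ranks reflect equal p-values.

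CpG content of the start site was a property that the peaks did not define. CpG observed over expected was computed 500 bp either side of each canonical TSS. Coding genes above 0.75 had a promoter region in both abemaciclib libraries in 76.5% of cases, those between 0.5 and 0.75 in 57.0%, those between 0.25 and 0.5 in 13.4% and those below 0.25 in 7.57%. FOXA1, at 0.87, GATA3, at 0.85, and TFAP2C, at 0.83, had such a region, and so did TFAP2A, at 0.72, GRHL2, at 0.64, and PGR, at 0.62. SPDEF, at 0.19, had none. ESR1, at 0.76, and XBP1, at 0.89, also had none, though they fell in the CpG-rich class in which most genes had one.

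**Figure D4:**
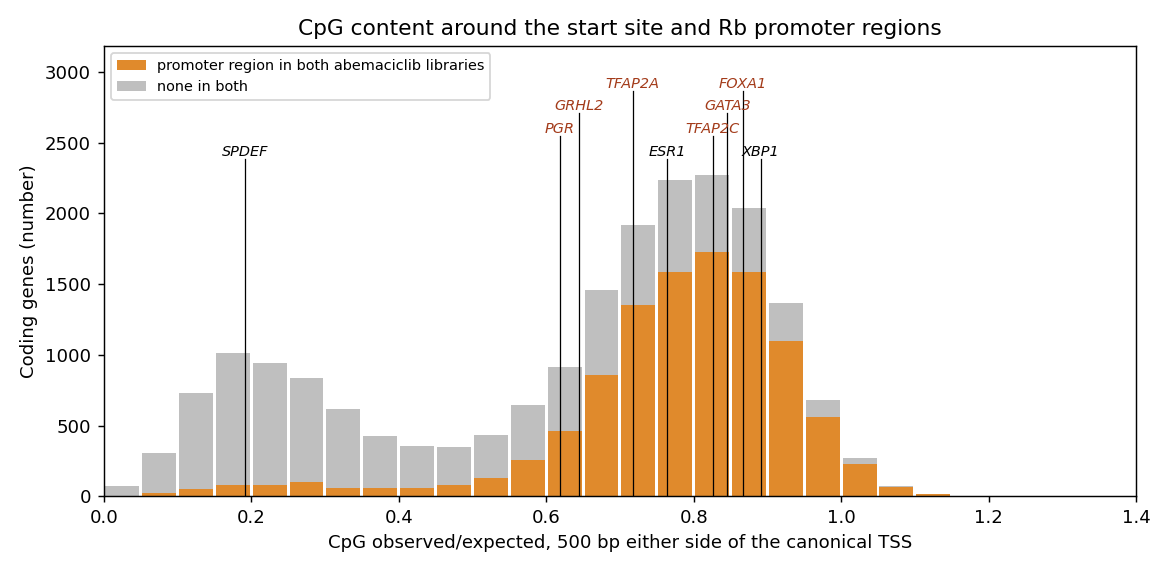
Number of coding genes (y axis) by CpG observed over expected around the canonical TSS (x axis), split by a promoter region in both abemaciclib libraries (orange) or none (grey), with the 9 genes marked and those with such a region named in red. ESR1 (0.76) and XBP1 (0.89), named in black, lie in the CpG-rich class, of which 76.5% had such a region, and SPDEF (0.19) lies in the poorest class, of which 7.57% did.

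The sequence at the summits gave no motif common to all the genes. In abemaciclib replicate 1 an AP-2 match was in promoter windows of FOXA1, GATA3, TFAP2A, TFAP2C and GRHL2, but not of PGR or SPDEF. Of 12 promoter windows of the 9 genes in abemaciclib replicate 1, 3 held an E2F match, 3 a CCAAT box, 2 a CHR match and 6 an AP-2 match, and none held a match for AP-1, for grainyhead factors (AACCGGTT), for forkhead factors (the letters TGTTTAC) or for GATA factors, which were sought as AGATAA and with the first base changed as TGATAA. In all promoter windows of that library the shares were 17.3% for E2F, 18.6% for CCAAT, 3.82% for CHR and 27.7% for AP-2. They were 1.35% for AP-1, 0.125% for grainyhead, 0.990% for forkhead and 3.07% for GATA. E2F stood for TTCCCGC and its variants with other central bases, which were TTCGCGC, then TTGCCGC and also TTGGCGC, and each pattern was read on both strands. An oestrogen response element, taken as GGTCA and TGACC with 3 bases between them and at most 1 mismatch, was in 0 of the 12 windows, beside 0.316%, and in 1 of 5 non-promoter windows, at the TFAP2A peak 31.4 kb downstream, beside 0.828% of the 1811. In the 9 promoter windows of replicate 2, 2 held an E2F match, 3 a CCAAT box, 4 an AP-2 match, 1 a GATA match (TGATAA, at TFAP2C) and 0 a CHR match. The shares over all promoter windows of replicate 2 were not computed, so these counts were not read as high or low. Several windows belong to the same gene, so they are not independent.

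Other genes of the lineage were compared by list. In a list of 20 further luminal regulators, 16 had a promoter region in both abemaciclib libraries and 12 a gained one, beside 52.5% and 40.1% of coding genes. A region in all 4 libraries was found at 3 of the 20, beside 6.49%. Here and for the lists below, ranks are out of 1438 and 2582 peaks in DMSO and 13960 and 12234 in abemaciclib. ZNF703, a luminal corepressor, had ranks of 243 and 418 in DMSO and of 363 and 300 in abemaciclib, in the order of the replicates. CREB3L4 ranked 603, 2450, 498 and 346, in peaks that also fell in the promoter of SLC39A1. ESRRA, an oestrogen-related orphan receptor, ranked 1373, 1620, 906 and 896. Some of these DMSO calls were near the floor of their list. CREB3L4 in DMSO replicate 2 had a −log10 p of 5.09, where the lowest was 4.76. ESRRA in DMSO replicate 1 had 5.26, where the lowest was 5.10. In a list of 20 basal and mesenchymal regulators, 9 had a region in both abemaciclib libraries and 9 a gained one, and 1 had one in all 4. NFIB led that list, with ranks 737, 1296, 513 and 744, and the epithelial-mesenchymal factors TWIST1 and SNAI2 had promoter peaks only in abemaciclib, with ranks 5189 and 6029 and ranks 5866 and 7807.

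Paralogues of the 9 factors held promoters with Rb peaks in abemaciclib alone and others that had them in DMSO too. Of 19, 10 had a promoter region in both abemaciclib libraries, 7 had a gained one and 2 had one in all 4, beside 52.5%, 40.1% and 6.49% of coding genes. ESR2, which encodes oestrogen receptor β, ranked 71 and 183 in DMSO and 237 and 150 in abemaciclib, with its summits 44.5 kb upstream of its canonical TSS and within 766 bp of an upstream start, whereas ESR1 had no promoter peak. NR3C1, the glucocorticoid receptor gene, ranked 1138 in DMSO replicate 1, had no peak in DMSO replicate 2, and ranked 1537 and 3183 in abemaciclib. ESRRA is in both this list and that of luminal regulators, and the lists are not independent. The lists were compared by counts alone, and a difference between them was not tested.

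**Figure D5:**
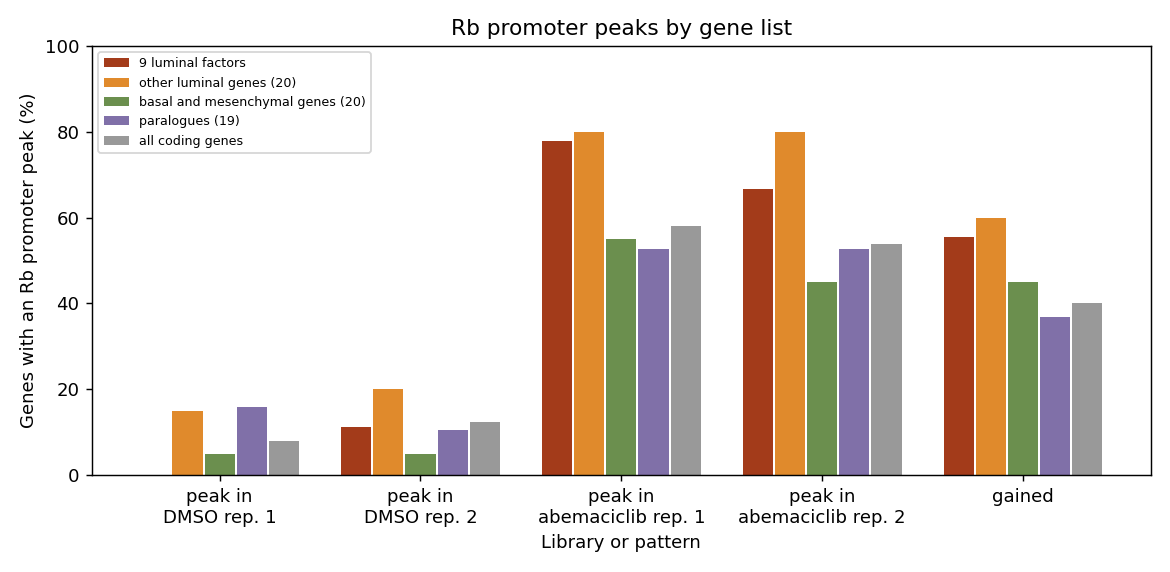
Percentage of genes with an Rb promoter peak (y axis) in each Rb library and with a gained region (x axis), for the 9 luminal factors, the other luminal genes, the basal and mesenchymal genes, the paralogues and all coding genes. The 9 factors have none in DMSO replicate 1, and in abemaciclib they stand at 7 and 6 of 9, beside 58% and 53.9% of coding genes.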

How the data were processed

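CUT&RUN peak lists of ZR-75-1 cells were analysed for 2 DMSO and 2 abemaciclib Rb libraries and 1 DMSO IgG2a library. The authors aligned reads to hg38 (GRCh38) and called peaks in each library separately against IgG, at q of 0.05, and kept duplicate reads. The submitters' processing notes name Bowtie2 2.3.4.1 and MACS2 2.2.7.1. Each deposited list gives a fold, the ratio of coverage plus 1 to background plus 1. It also gives, as deposited, Poisson p-values and q-values in −log10 form. All were read within a library only. The lists hold no counts over common regions, so no count model was fitted.

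Summit coverage and background were solved from fold and p-value at a tolerance of 0.002, which was tested on simulated data. Of Rb peaks with −log10 p of at most 40, between 99.36% and 99.86% were solved by library, and the depth per sample is given as the lowest recurrent background. Peaks of the Rb libraries sharing at least 1 bp were merged into regions. Promoters followed GENCODE 44. Other peaks were assigned by gene body or by the nearest coding TSS within 100 kb. Ranks follow −log10 p, with 1 the strongest. Peak numbers were compared by an exact two-sided permutation test. All peaks lay within GRCh38 reference lengths, apart from those on sequences outside this reference. Coordinates are counted from 1. Sequences came from GRCh38 and, for RefSeq promoters, from GRCh38.p14. Analyses used Python 3.11.15 and scipy 1.17.1.

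The 9 genes and the gene lists were chosen with earlier results of these data known. Named genes were all 9 factors, the 3 genes nearest in rank to FOXA1 and to TFAP2A, and the 3 best-ranked genes of each list in abemaciclib replicate 1. Per the study's methods, replicates were independent cultures with separate profiling reactions. Alternatives covered the q-value, equal list sizes, IgG2a overlaps, the promoter definition, the distance limit and leaving out each library. Pairing by replicate number was added after the data were examined.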

Additional observations from a re-analysis of the deposited data

How the results depend on the processing

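The mean difference in peak number did not change sign under any alternative. The other results are counts of genes, which cannot fall below 0 and so could not reverse. With equal lists of the 1438 strongest peaks, the counts of gained promoter genes, of promoter genes found in both abemaciclib lists and of genes with a non-promoter region in both all fell to 0, from 5, 6 and 2, and the mean difference in peak number fell to 0, from 14.5. By construction that setting keeps the same number of peaks in each list. The shares of all coding genes were then 1.10%, 7.49% and 0.781% for the 3 counts in that order. With the canonical transcript only, the counts were 2, 3 and 5, beside 36.7%, 49.3% and 14.6% of coding genes. At a q-value of at most 1e-05, 1 gene had a non-promoter region in both abemaciclib libraries, beside 7.30% of coding genes, and the mean difference was 8.5. At that limit 4 promoter genes were gained, beside 40.3%, and 4 had a promoter region with a peak in both abemaciclib libraries, beside 46.9%. In each case these were FOXA1, TFAP2A, TFAP2C and GRHL2, and TFAP2C became gained with the loss of its DMSO peak. GATA3 kept a promoter region in 1 library. PGR kept promoter peaks in both abemaciclib libraries, but not in the same region. Leaving out 1 library in turn gave 5 to 6 gained promoter genes, 6 to 7 with a peak in both (or in the remaining) abemaciclib libraries, 2 to 5 with a non-promoter region and a mean difference of 12.5 to 16.5. The shares of coding genes for these gene counts were 41.4% to 46.1%, 52.5% to 58.0% and 9.28% to 14.0%. The highest count of genes with a non-promoter region came without abemaciclib replicate 2, which leaves a single abemaciclib library to call a region. The other settings, 39 of 49 values, stayed within 1.5 times the main value. ESR1 and XBP1 had a promoter region in 0 libraries under all 12 alternatives. None of these settings adds peaks or widens promoters, so a count of 0 could not rise and the alternatives do not test it. A fit with a replicate block, libraries with the same replicate number taken as pairs, was chosen after seeing the data. It gave the same difference of 14.5, with an exact two-sided permutation p of 0.5, the smallest that 2 pairs allow; the labels do not say that a shared number marks a shared culture or day. Depth limits the weaker calls: a summit of 5 to 9 fragments has a wide counting interval, and a position below the threshold has no value in the lists.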
